A study of Mus musculus with 9 samples.

Results

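The genes described here are 4 Janus kinases, Jak1, Jak2, Jak3 and Tyk2, and 5 signal transducers and activators of transcription, Stat3, Stat4, Stat5a, Stat5b and Stat6. They were chosen by name, as parts of the cytokine signaling pathway, and were located in the count tables by their Ensembl identifiers. All 9 were present among the 32976 genes of the tables. Bulk RNA-seq was performed on GSW11-specific CD8+CD44+ tumor-infiltrating lymphocytes (TILs) of wildtype BALB/c mice, sorted by tetramer from subcutaneous CT26 tumors, a mouse colorectal carcinoma line. GSW11 is a peptide epitope of the gp70 envelope protein, and the brightness of tetramer staining was used to separate T cells of high and low avidity.

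There were 3 groups of 3 libraries. TetHighProg (replicates 1, 2 and 5) held high avidity cells from progressing tumors, TetLowReg (replicates 6, 7 and 8) low avidity cells from regressing tumors, and TetLowProg (replicates 9, 10 and 12) low avidity cells from progressing tumors. Every mouse had received anti-PD-1 (clone RMP1-14) on days 3, 6 and 9 after implantation, so no group was untreated. The study describes 3 regressing and 3 progressing tumors as the source of all cells, so the high and low avidity cells of progressing tumors would share their tumors. The labels do not tie libraries to tumors, so TetLowProg and TetHighProg could not be paired and were compared as separate groups. The p-values measure the spread between these libraries, which may be technical in part. Mice were assigned to regression or progression by the course of their tumors, not by design.

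JAK kinases are bound to the cytoplasmic tails of cytokine receptors. When a cytokine brings receptor chains together, the kinases phosphorylate each other and the receptor, STAT proteins dock there and are phosphorylated in turn, and STAT dimers enter the nucleus and bind DNA. In CD8+ T cells, Jak1 and Jak3 serve the receptors for IL-2, IL-7 and IL-15, which act chiefly through Stat5a and Stat5b. Tyk2 and Jak2 serve the IL-12 receptor, which acts through Stat4, while Stat3 follows IL-6, IL-10 and IL-21 and Stat6 follows IL-4.

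The libraries held 16405306 to 36429515 reads counted on genes, and differed far more in how many genes they contained. The number of genes with at least 10 counts, called found here, was 1298, 599 and 3181 in TetHighProg, 766, 8004 and 7234 in TetLowReg, and 8071, 1148 and 6443 in TetLowProg. The libraries TetHighProg 2 and TetLowReg 6 stood apart with 599 and 766 genes found. Of 12 T cell markers, 4 to 11 were found in TetHighProg, 7 to 12 in TetLowReg and 5 to 12 in TetLowProg. Their summed level was 4662 to 7613 CPM (counts scaled to the gene count total of the library), 1157 to 9985 CPM and 3178 to 6984 CPM in the same order. Cd8a itself, which encodes a chain of the co-receptor that defines these cells, had 0 counts in TetHighProg 1, TetHighProg 2 and TetLowProg 10, while Cd8b1, which encodes its partner chain, had 79539, 78155 and 75010 counts in those libraries.

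Coordinates are those of GRCm39. Jak1 is at chr4:101008838-101122487 (minus strand), Jak2 at chr19:29228677-29290505 (plus), Jak3 at chr8:72123007-72143225 (plus) and Tyk2 at chr9:21015363-21042689 (minus). Stat4 is at chr1:52026307-52151423 (plus) and Stat6 at chr10:127477821-127496862 (plus). The other STAT genes are neighbors, with Stat5b at chr11:100671556-100741589 (minus), Stat5a at chr11:100750177-100776065 (plus) and Stat3 at chr11:100775924-100830450 (minus). Stat5a and Stat3 overlap by 142 bases at their 3′ ends on opposite strands, and the counts do not use strand, so reads in that overlap could not be assigned to either gene. The 2 genes were nonetheless separate in these tables, as Stat5a had 1344 counts beside 0 for Stat3 in TetHighProg 1, and Stat3 had 24144 counts beside 1 for Stat5a in TetLowProg 10. Stat5a and Stat5b are close paralogs, so reads from stretches they share may be missing from both.

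The 250 bases before the RefSeq start of each gene were searched for 3 motifs, among them the motif that STAT dimers bind. The STAT dimer motif TTCNNNGAA was in 0 of the 12 start windows of the 9 genes, against 7.02% of all 32851 windows. The form with 1 more base between its arms was also in 0, against 5.85% of all windows. The GC box core GGGCGG, read on either strand, was in 7 of the 12 windows, against 32.7% of all windows. These windows belonged to 7 genes, and those of Stat4 and Stat6 did not hold it. Stretches around the GC box are given for Jak1, which was found in the most libraries, and for Stat3 and Jak2, which had 0 counts throughout TetHighProg. They read 5′ to 3′ on the strand of the gene, with the GC box core in capitals. The sequences are from RefSeq (GRCm38.p6) and the positions were found by exact match in GRCm39. Jak1 is at chr4:101122454-101122479, Stat3 at chr11:100830420-100830445 and Jak2 at chr19:29229101-29229126, all inside the longer gene spans of GENCODE given above.
Jak1: agagttggagGGGCGGggcgccggtg
Stat3: attggttagtGGGCGGggcttaggaa
Jak2: ggcccctggaGGGCGGagacgggctc

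Jak1, a kinase shared by many cytokine receptors, was found in 7 of 9 libraries, more than any other of the 9 genes. It had 150521, 3 and 28319 counts in TetHighProg, 1, 28406 and 28439 in TetLowReg, and 38625, 160756 and 51210 in TetLowProg. The low values of 3 and 1 were those of TetHighProg 2 and TetLowReg 6. In CPM every pair of groups overlapped, with TetLowProg 9 and 12 (1063 and 1626 CPM) inside the TetLowReg range and TetLowProg 10 (6394 CPM) above all other libraries. In unscaled counts, which do not allow for the library totals, every TetLowProg library was above every TetLowReg library. TetLowReg 8 held 16405306 gene counts and TetLowProg 9 held 36339555. The share of all genes with this pattern in unscaled counts was not taken. Mean levels were 1918 ± 2326 CPM in TetHighProg, 838 ± 868 CPM in TetLowReg and 3028 ± 2929 CPM in TetLowProg (SD, n = 3 each).

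Jak2, which serves the IL-12 and interferon gamma receptors, had 0 counts in all 3 TetHighProg libraries. It had 0, 1817 and 343 counts in TetLowReg and 932, 0 and 4015 in TetLowProg. Each low avidity group thus had 1 library at 0 that overlapped with TetHighProg. With the 0 counts of TetHighProg set at a limit of 3 over the group, the pooled level was at least 783-fold higher in TetLowReg and at least 1444-fold higher in TetLowProg. These bounds allow for counting error only, not for the spread between libraries, and are not limits on expression. With 1 library left out these bounds fell as low as 242 (without TetLowReg 7) and 411 (without TetLowProg 12).

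Jak3, the partner of the common gamma chain, was found in a single library. It had 8264 counts (227 CPM) in TetLowProg 9, 2 in TetLowReg 8, 1 in TetHighProg 5 and 0 in the other 6 libraries. It was removed by the filter of edgeR on low counts and was therefore not tested, and its level in TetLowProg rested on 1 library.

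Tyk2, the kinase of the type I interferon and IL-12 receptors, was found in 3 libraries. It had 0, 0 and 548 counts in TetHighProg, 0, 0 and 1 in TetLowReg and 6542, 0 and 3342 in TetLowProg. The highest values were those of TetLowProg, but its replicate 10 at 0 lay within both other groups. The pooled ratio of TetLowProg to TetLowReg was 7959, with a 95% counting interval from 1428 to 314407 that covers counting error only. It was 4418 without TetLowProg 9, and without TetLowReg 8, which held the single count of its group, TetLowProg was at least 2072-fold higher.

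Among the STAT factors, Stat3 had 0 counts in all TetHighProg libraries, 0, 11266 and 1921 in TetLowReg and 17511, 24144 and 18256 in TetLowProg. These were 0, 309 and 117 CPM in TetLowReg and 482, 960 and 580 CPM in TetLowProg. Stat3 was found in every TetLowProg library, as was Jak1, and the Stat3 level of every TetLowProg library lay above that of every library of both other groups. The mean was 674 ± 253 CPM in TetLowProg and 142 ± 156 CPM in TetLowReg (SD, n = 3 each). The highest Stat3 level was in TetLowProg 10, with 1148 genes found, and Stat3 was at 0 in TetHighProg 1 and 5, with 1298 and 3181 genes found. Pooled Stat3 was at least 4780-fold higher in TetLowReg and at least 17488-fold higher in TetLowProg than the limit set by 0 counts in TetHighProg. As for Jak2, these bounds leave out the spread between libraries, and TetLowReg 6 was itself at 0. With 1 library left out these bounds fell as low as 1356 (without TetLowReg 7) and 10312 (without TetHighProg 1).

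Non-overlap of this kind, with TetLowProg higher, was seen for 6.67% of the 5813 tested genes against TetHighProg and for 2.77% against TetLowReg. The two-sided exact permutation test of mean Stat3 CPM gave p = 0.1 against each group, which is the smallest p that 3 libraries against 3 can give. In CPM, each of the other 8 genes overlapped between the groups in all 3 comparisons.

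Stat4, the factor downstream of IL-12, also had 0 counts in all TetHighProg libraries. It had 0, 427 and 1622 counts in TetLowReg and 8073, 0 and 3371 in TetLowProg. It was found in the same 4 libraries as Jak2, and its libraries at 0 were the same 5. Pooled Stat4 was at least 743-fold higher in TetLowReg and at least 3340-fold higher in TetLowProg than the limit for TetHighProg. These bounds were 198 without TetLowReg 8 and 1615 without TetLowProg 9, and they leave out the spread between libraries. The processed pseudogene Gm3940 lies within the Stat4 gene on the opposite strand and reached 15359 counts in 1 library, counted apart from Stat4.

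Stat5a and Stat5b, the factors downstream of IL-2, IL-7 and IL-15, were found in all 3 groups. Stat5a had 1344, 0 and 22 counts in TetHighProg, 0, 692 and 92 in TetLowReg and 4616, 1 and 868 in TetLowProg. Stat5b had 0, 0 and 2554 counts in TetHighProg, 0, 300 and 14 in TetLowReg and 4288, 0 and 911 in TetLowProg. The groups overlapped for both genes, and the 2 paralogs parted in TetHighProg, where replicate 1 held Stat5a with 0 for Stat5b and replicate 5 held mostly Stat5b.

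Stat6, the factor downstream of IL-4, had 0, 0 and 1 counts in TetHighProg, 0, 135 and 8 in TetLowReg and 6906, 0 and 1409 in TetLowProg. TetLowProg 9 and 12 were the highest 2 libraries and replicate 10 was at 0, so the groups overlapped. The pooled ratio of TetLowProg to TetHighProg was 7281, with a 95% counting interval from 1306 to 287628. It was 2025 without TetLowProg 9, and without TetHighProg 5, which held the single count of its group, TetLowProg was at least 1751-fold higher.

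**Figure D1:**
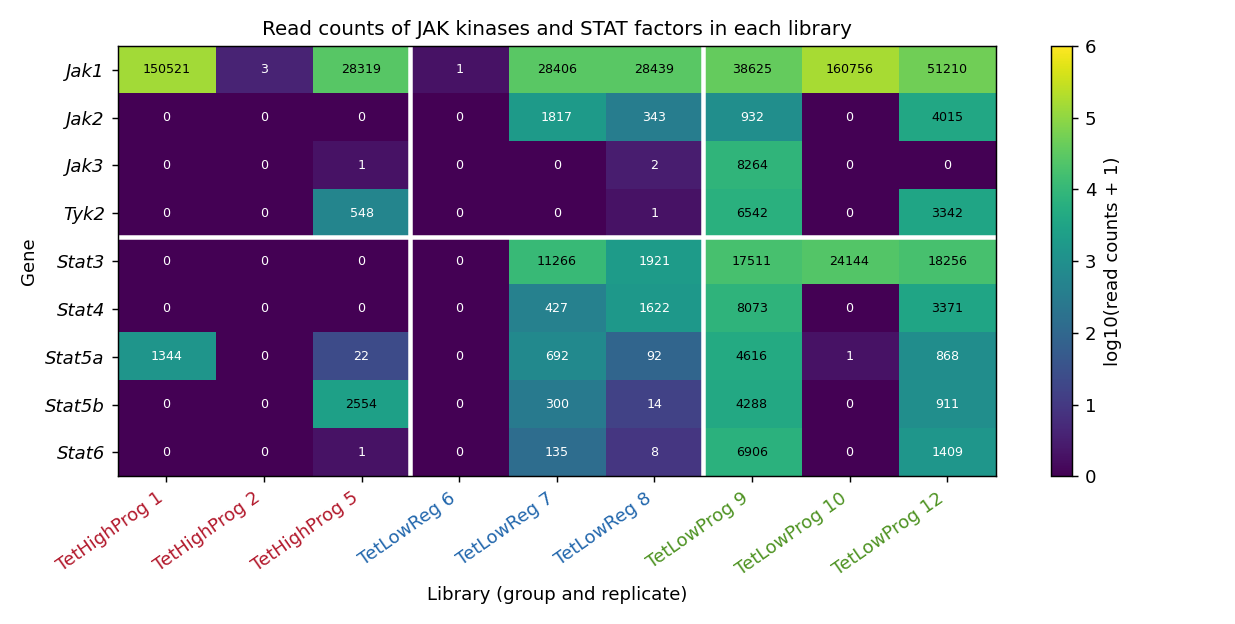
Read counts of the 4 JAK and 5 STAT genes (rows) in the 9 libraries (columns, colored by group). Color is log10(read counts + 1) and each cell prints its count. Jak1 fills 7 columns, Stat3 is at 0 in all TetHighProg columns and present in all TetLowProg columns, and TetHighProg 2 and TetLowReg 6 are nearly empty.

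Per length, in CPM per kilobase of exon, Jak1 was the most abundant of the 9 genes in every library, although in TetHighProg 2 and TetLowReg 6 it stood for only 3 and 1 counts. Its median level over the 9 libraries was 115 CPM per kilobase. In TetLowProg 9 it made up 34.4% of the summed level of the 9 genes, and in TetLowProg 12 56.5%. Stat3 reached 95.1 CPM per kilobase in TetLowProg 10. The JAK kinases summed to 152 and the STAT factors to 133 CPM per kilobase in TetLowProg 9, the library with the most even mixture, against 416 and 4.87 in TetHighProg 1.

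**Figure D2:**
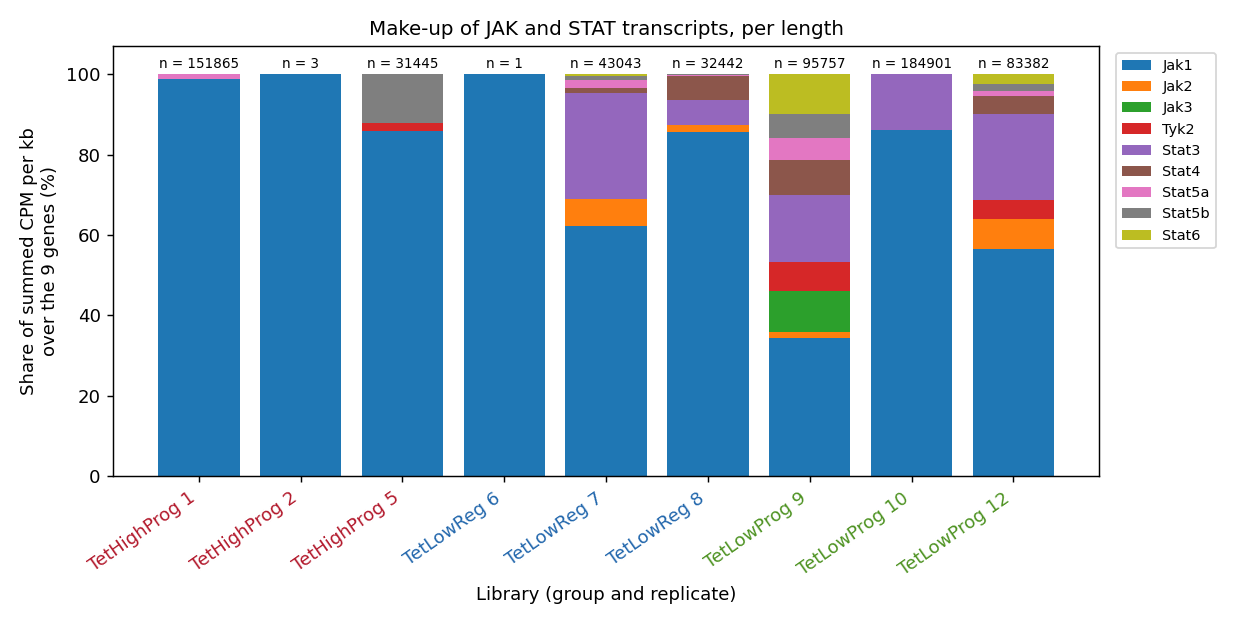
Share of each gene (color) in the summed CPM per kilobase of the 9 genes, for each library. The number above a bar is the total of read counts behind it. Jak1 takes 98.8% in TetHighProg 1 and 34.4% in TetLowProg 9, and the full bars of TetHighProg 2 and TetLowReg 6 rest on 3 and 1 counts.

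Of the 9 genes, 2, 0 and 4 were found in TetHighProg, 0, 7 and 6 in TetLowReg, and 9, 2 and 8 in TetLowProg. The means were 2.0 ± 2.0, 4.33 ± 3.79 and 6.33 ± 3.79 genes (SD, n = 3 each). The difference of TetLowProg from TetHighProg, 4.33 genes, was above the SD of either group, and those of the other pairs, 2.33 and 2.0, were below the larger SD of the pair. The difference of TetLowReg from TetHighProg was 1.0 without TetLowReg 7 and 4.5 without TetLowReg 6. No test was made over the 9 genes. The number of JAK and STAT genes found followed the number of all genes found in a library, from 1.82% of all genes and 0 of the 9 in TetHighProg 2 to 24.5% of all genes and 9 of the 9 in TetLowProg 9. Thinning every library to the smallest total left each of these counts as it was. In bulk libraries, fewer cells of a type and less RNA per cell cannot be told apart.

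**Figure D3:**
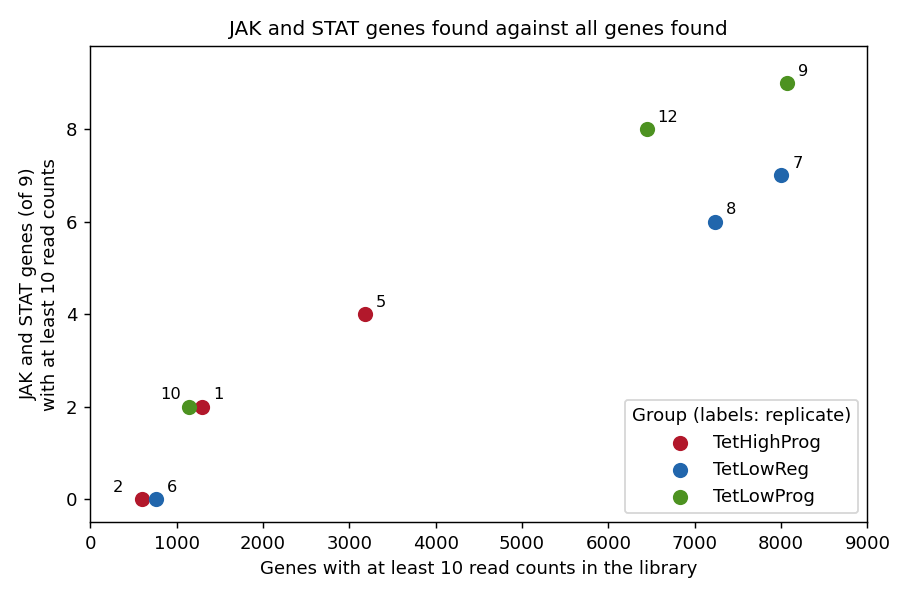
JAK and STAT genes with at least 10 read counts (of 9, vertical axis) against all genes with at least 10 read counts (horizontal axis), 1 point per library, colored by group and labelled by replicate. The 5 libraries with 599 to 3181 genes hold 0 to 4 of the 9, and the other 4, with 6443 to 8071 genes, hold 6 to 9.

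Markers of other cells were present in libraries with many and with few genes found. The B cell markers Cd79a, Cd79b, Ms4a1 and Pax5 were found only in TetLowReg 7, TetLowReg 8 and TetLowProg 12, with 4 of 4 in each. Their summed level was 0.0 to 0.0395 CPM in TetHighProg, 0.0 to 686 CPM in TetLowReg and 0.0 to 1110 CPM in TetLowProg. These 3 libraries also held Jak2, Stat3 and Stat4, and the part of B cells in those values was not tested. The hemoglobin genes Hbb-bs (218, 354 and 1133 counts) and Hba-a1 (676, 132 and 565) were found in the same 3 libraries and in no other, and Cd4 (2020 and 42) and Foxp3 (123 and 585) in TetLowReg 7 and 8 alone. Their part was not tested either. In TetLowProg 9 all 4 B cell markers had 0 counts while all 9 JAK and STAT genes were found, and in TetLowProg 10 all 4 had 0 counts beside 24144 counts of Stat3.

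Of 12 macrophage and dendritic cell markers, 0 to 1 were found in TetHighProg, 0 to 4 in TetLowReg and 0 to 2 in TetLowProg. Their summed level was 0.0395 to 1543 CPM, 0.227 to 8395 CPM and 0.0 to 574 CPM in the same order. Lyz2, the lysozyme of macrophages, had 299515 counts in TetLowReg 7. C1qa had 0 counts in all libraries. Lyz2 also had 51557 counts in TetHighProg 1, where Stat3, Stat4 and Jak2 were at 0, and 0 counts in TetLowProg 9 and 10. In TetLowProg 9, 2 other markers of the list were found, Cd68 with 570 counts and C1qb with 15, and TetLowProg 10 had 0 counts of all 12. Of 6 tumor and stroma markers, 0 to 1 were found in TetHighProg, 0 to 3 in TetLowReg and 0 to 1 in TetLowProg. Their summed level was 0.0790 to 372 CPM, 0.0 to 5.71 CPM and 0.0 to 8.48 CPM in the same order, and Krt8 and Krt18 had 0 counts in all libraries. Col1a2, a collagen gene of stroma, had 12437, 1 and 1906 counts in TetHighProg, 0, 3 and 46 in TetLowReg and 306, 0 and 27 in TetLowProg. Its adjusted p in TetLowReg against TetHighProg was 0.425 with edgeR and 0.0409 with DESeq2 on the 2 groups. The other collagen genes of the list went the other way. Col1a1 had 0, 1 and 0 counts in TetHighProg and 0, 99 and 19 in TetLowReg. Col3a1 had 0 counts throughout TetHighProg and 24 in TetLowReg 8. The part of macrophages, dendritic cells, tumor and stroma in the values of the JAK and STAT genes was not tested.

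Differences between groups were tested with the quasi-likelihood test of edgeR over 5813 genes, in which 8 of the 9 genes could be tested. Calls needed an adjusted p below 0.05 together with a log2 fold change beyond 2 in size. In TetLowReg against TetHighProg, 0 of 8 were called, as were 0.0% of all genes. At an unadjusted p under 0.05 there were 3 of 8, Jak2, Stat3 and Stat4, against 19.5% of all genes. Stat3 had a log2 fold change of 11.62 (SE 4.28, adjusted p = 0.233 by edgeR). Jak2 and Stat4 had 9.02 (SE 4.56) and 9.31 (SE 4.69), with the same adjusted p of 0.233. Fitted fold changes against a group at 0 depend on the prior count of 2. Values below 0 were those of Tyk2 (-6.16, SE 4.46), Stat5b (-2.60, SE 4.50), Jak1 (-0.75, SE 2.29) and Stat5a (-0.10, SE 4.22), none of which passed the test. The median of the 8 was 2.37, and that of all genes tested was 3.52.

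DESeq2 on the same 2 groups called 3 of the 5 genes it tested, Jak2, Stat3 and Stat4, all higher in TetLowReg, against 34.4% of all genes. limma-voom called the same 3 of 8, against 41.5% of all genes, and so did DESeq2 with all 3 groups, against 35.7%. Libraries were also simulated with the common spread estimated from all 9 libraries. There, DESeq2 with all 3 groups recovered 25 of 200 genes raised in TetLowReg and made 428 false calls. Both edgeR and limma-voom recovered 0 with 0 false calls. As limma-voom called 41.5% of all genes in the real libraries, the simulation was unlike them. Its false calls do not measure those of the real comparison.

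In TetLowProg against TetHighProg, edgeR called 0 of 8, beside 0.0% of all genes. This comparison shares its TetHighProg libraries with the one above. At an unadjusted p under 0.05 there were again 3 of 8, Jak2, Stat3 and Stat4, against 25.4% of all genes. The log2 fold changes were 13.03 for Stat3 (SE 4.58), 10.15 for Stat4 (SE 4.95) and 9.35 for Jak2 (SE 4.66), each with an adjusted p of 0.193 by edgeR. Stat6 had 9.34 (SE 5.23, adjusted p = 0.211). All 8 values were above 0, with a median of 6.38 against 4.27 for all genes. DESeq2 on the 2 groups called 4 of 8, Jak2, Stat3, Stat4 and Stat6, against 47.5% of all genes, and DESeq2 with all 3 groups called the same 4, against 44.3%. limma-voom called 6 of 8, adding Tyk2 and Stat5b, against 49.9% of all genes.

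With the number of genes found as a covariate in edgeR, the Stat3 log2 fold change was 10.65 in TetLowReg and 12.71 in TetLowProg against TetHighProg (adjusted p = 0.254 and 0.14), while that of Jak2 was 1.47 and 2.14 and that of Stat4 1.41 and 2.0. Stat6 had 0.55 and 4.50 (SE 1.48 and 35.37), Stat5a -6.17 and -5.27, Stat5b -4.44 and -3.41, Tyk2 -5.09 and 1.39, and Jak1 -1.17 and 0.53. In TetLowReg the adjusted p by edgeR was 0.193 for Tyk2, 0.217 for Stat5b and 0.255 for Stat5a, all lower than in TetHighProg. In TetLowProg it was 0.215 for Stat5b and 0.286 for Stat5a, also lower. None of the 8 was called in either comparison.

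In TetLowProg against TetLowReg, edgeR called 0 of 8 (0.0% of all genes) and 0 had an unadjusted p under 0.05, against 0.929% of all genes. Each of the 8 had an adjusted p of 1 by edgeR. The largest difference was that of Tyk2, with a log2 fold change of 9.57 (SE 5.54), and Stat6 followed with 4.50. Stat3 had 1.41, Jak1 1.32 and Jak2 0.33. DESeq2 on the 2 groups called 0 of 8, against 0.3% of all genes, limma-voom called 0, against 0.0%, and DESeq2 with all 3 groups called Tyk2 alone, against 1.87%.

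**Figure D4:**
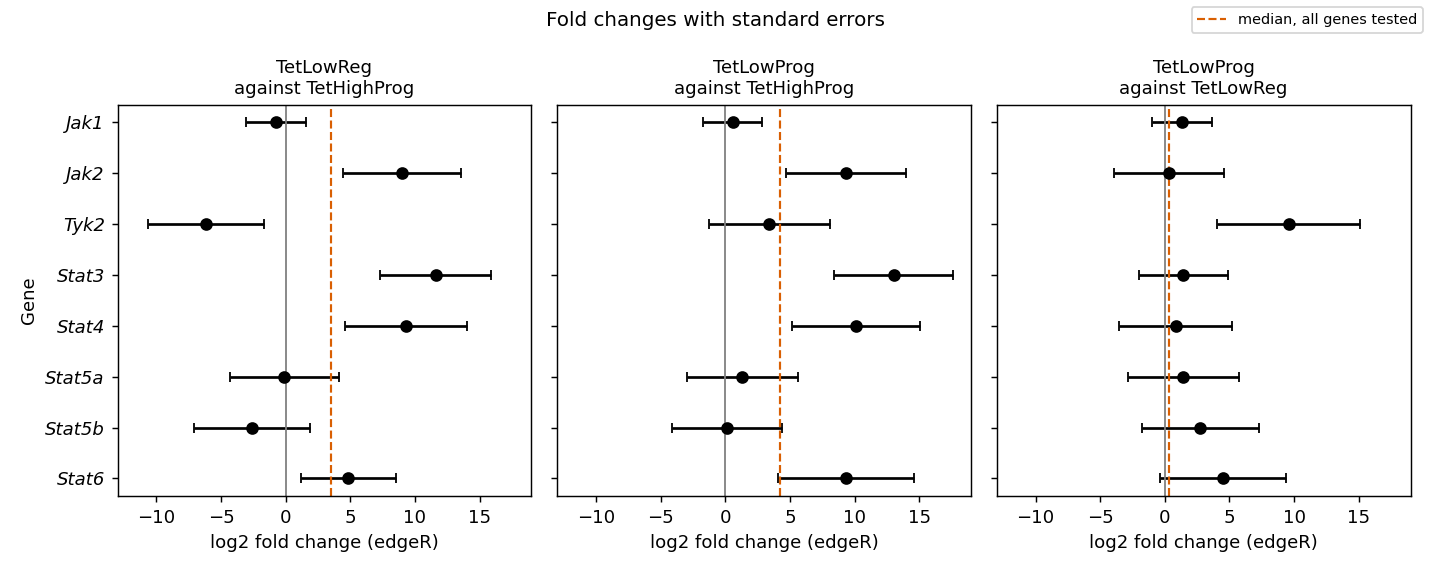
log2 fold change (horizontal axis) with its standard error from edgeR for the 8 tested genes in the 3 comparisons. The grey line is at 0 and the dashed line is the median of all genes tested, 3.52, 4.27 and 0.35 from left to right. Stat3 lies farthest to the right in both comparisons with TetHighProg, at 11.62 and 13.03.

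Outside these 9 genes, Stat2, a factor of type I interferon signaling, had 0, 0 and 17 counts in TetHighProg, 0, 10 and 0 in TetLowReg and 2008, 0 and 1963 in TetLowProg. It was not called in any comparison by edgeR.

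Among 8 receptor genes of the common gamma chain family, Il2rg, which encodes the chain itself, was found in all 9 libraries with 21629 to 251482 counts, its lowest value in TetLowProg 9, where Jak3 was found. Il7r, the IL-7 receptor alpha chain, was found in 6 libraries and had 24042, 0 and 22459 counts in TetHighProg. Il4ra, the IL-4 receptor alpha chain, had 0 counts in all TetHighProg libraries, 0, 2843 and 912 in TetLowReg and 5193, 9037 and 3850 in TetLowProg. It was found in the same 5 libraries as Stat3. Its log2 fold change by edgeR was 9.87 (SE 4.70, adjusted p = 0.233) in TetLowReg and 11.34 (SE 5.12, adjusted p = 0.193) in TetLowProg against TetHighProg. Of the family, edgeR tested 5 genes and called 0 in each comparison. DESeq2 on the 2 groups called 1 of 3 higher in TetLowReg and 3 of 5 higher in TetLowProg than in TetHighProg, against 33.9% and 47.4% of all genes, with Il4ra in both.

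The 6 receptors of the gp130 and IL-12 families were sparse. Il6st, which encodes gp130, was found in 5 libraries and had 0, 4882 and 0 counts in TetHighProg, where Stat3 was at 0 in all 3 libraries. Il6ra and Il27ra, which pair with gp130, were found in 4 libraries each and were highest in TetLowProg 9 with 7110 and 15041 counts. Il12rb1, named after its values were seen because Stat4 follows its receptor, had 144 counts in TetLowProg 9 and 0 in the other 8 libraries, and Il12rb2, the other chain of that receptor, had 178 counts in TetLowReg 7, 305 in TetLowProg 9 and 0 in the other 7. Of the 6 genes, 3 were tested and 0 were called by edgeR in each comparison.

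Of 6 IL-10 and interferon receptors, Ifngr1, the ligand-binding chain for interferon gamma, was found in 8 libraries and had 1 count in TetLowReg 6. Ifngr2 and Ifnar2 were found in 3 and 4 libraries. All 5 tested genes of this list had positive fold changes in both comparisons with TetHighProg, as had 4225 and 4271 of all 5813 genes, and 0 were called by edgeR. DESeq2 on the 2 groups called 0 of 1 in TetLowReg, against 33.9% of all genes, and 3 of 5 higher in TetLowProg than in TetHighProg, against 47.4%. Among 18 inhibitors, edgeR tested 11 and called 0 in each comparison, while DESeq2 on the 2 groups called 1 of 3 higher in TetLowReg and 4 of 10 higher in TetLowProg than in TetHighProg, against the same shares of all genes. Ptprc, the CD45 phosphatase, was found in 8 libraries with a low of 4 counts in TetLowProg 10. Pias1 had 0, 0 and 11832 counts in TetHighProg and 8360, 51809 and 18025 in TetLowProg, and Ptpn2 was found in 5 libraries.

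Of 18 known STAT target genes, 13 were tested and 0 called by edgeR, with a median log2 fold change of 0.85 in TetLowReg and 2.44 in TetLowProg against TetHighProg, beside 3.52 and 4.27 for all genes. Ccnd2, a cyclin of T cell division, was found in 8 libraries and had 32266 counts in TetLowReg 6, where 0 of the 9 JAK and STAT genes were found. Mcl1, a survival factor, had 14769 counts in that library, and Gata3 had 0. DESeq2 on the 2 groups called 1 of 7 targets higher in TetLowReg, against 33.9% of all genes, and 4 of 11 higher in TetLowProg, against 47.4%, and 0 lower in either.

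**Figure D5:**
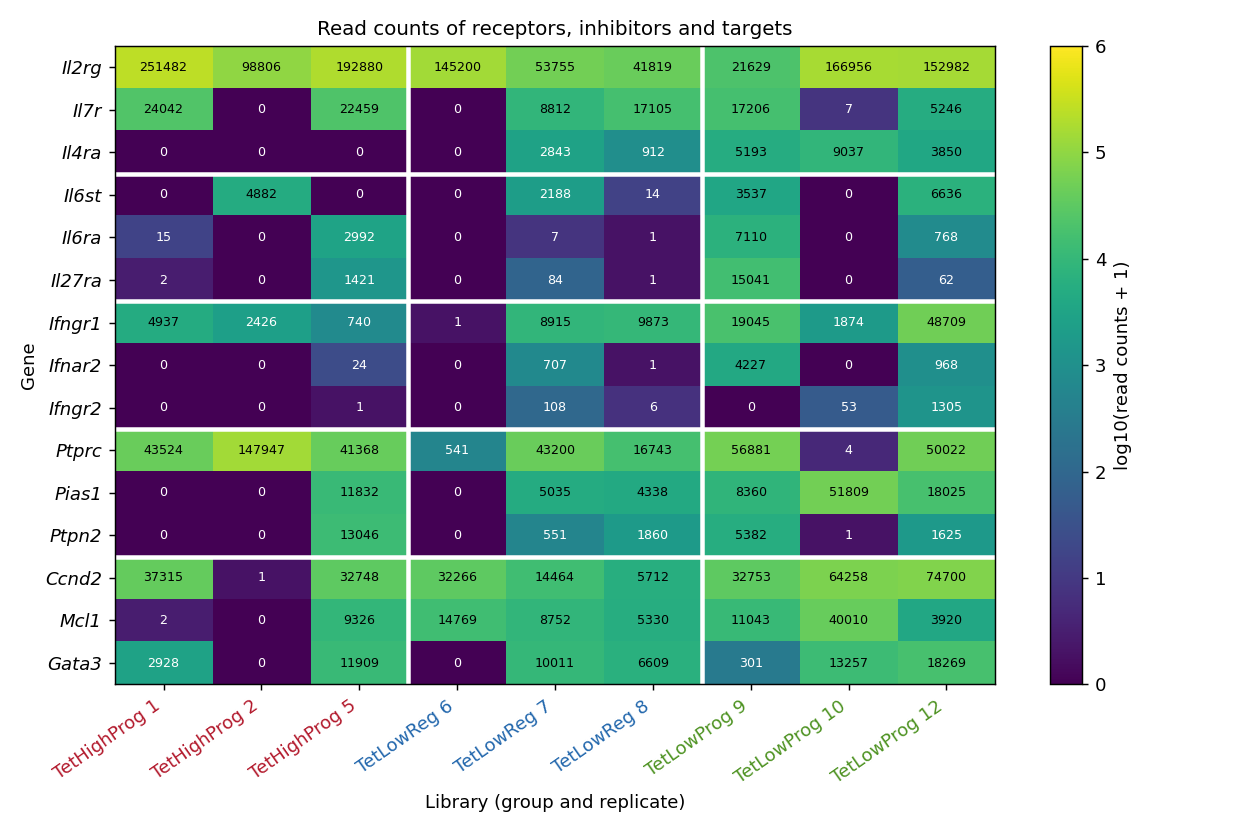
Read counts of 3 genes each of the receptor, inhibitor and target lists (rows, separated by white lines) in the 9 libraries (columns). Color is log10(read counts + 1). Il2rg is present in all 9 columns, and Il4ra is at 0 in all TetHighProg columns and present in all TetLowProg columns.

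The genes whose log2(CPM + 1) over the 9 libraries was most like that of Jak1, among 5812 tested genes, were Tax1bp1 (Pearson r = 0.991), Atrx (0.986), Pdia3 (0.982), Hnrnpk (0.982) and Ndufa12 (0.981). These are descriptions over 9 libraries that share the split between those with few and many genes found. Within the 9 JAK and STAT genes, the most alike pairs were Jak2 with Stat4 (r = 0.906) and Tyk2 with Stat5b (r = 0.887), which share that split as well.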

How the data were processed

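For each library the authors deposited raw counts of reads per gene, aligned to GRCm39 with STAR 2.7.6a. The study's methods name featureCounts, while the tables have the layout of STAR gene counts, which leave out reads at several places or in overlapping genes. The annotation release is not given in the sources used here. cDNA was made with Smart-seq2, without molecular identifiers, so intervals and lower bounds on folds cover counting error only. The unstranded column was used. Both strand columns held near equal counts and were not used further. The 4 summary lines were left out, and 28645 of 32976 genes were matched to GENCODE M39 for names and positions.

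CPM values are counts scaled to the total of gene counts in a library. Genes were tested with edgeR 4.0.16 (TMM, filterByExpr, 3 groups in 1 model, two-sided, Benjamini-Hochberg over all genes tested) in R 4.3.3. DESeq2 1.42.0 and limma-voom (limma 3.58.1) were alternatives, as were no filter, library size in place of TMM, no threshold on the fold change, genes found as a covariate, only libraries with 2000 or more genes found, each library left out in turn, and found at 1 or 100 counts or after thinning. Pooled folds with 1 library left out were added after seeing the data. SE was taken as the log2 fold change over the root of F. All 3 tools were tested on simulated data, where each recovered all 200 raised genes at a low spread. Figures used Python 3.11.15 and matplotlib 3.10.9.

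The 9 genes, the lists and the markers were chosen with earlier results of these data known. Named genes are the 9, Stat2, the 3 genes of each list with the highest median CPM per kilobase, and the 5 genes most like Jak1. Il12rb1, Il12rb2 and the cell type markers given by name were chosen after their values were seen. Some genes of the lists are not reported here.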

Additional observations from a re-analysis of the deposited data

How the results depend on the processing

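With edgeR, 0 JAK and STAT genes were called in each comparison under every filter, scaling, covariate and left-out library tried. DESeq2 with 3 groups called 3, 4 and 1 (TetLowReg against TetHighProg, TetLowProg against TetHighProg, TetLowProg against TetLowReg), DESeq2 on 2 groups 3 and 4 in the first and second, and limma-voom 3 and 6. The shares of all genes called were 35.7%, 44.3% and 1.87%, then 34.4% and 47.5%, then 41.5% and 49.9%. Of 384 alternative log2 fold changes, 27 changed sign, over 9 of the 24 fold changes. The other 15, among them all those of Stat3, Stat4 and Stat6, kept their sign. In TetLowReg against TetHighProg, limma-voom gave 3.64 for Jak1, 0.14 for Tyk2, 3.70 for Stat5a and 5.38 for Stat5b, and the richer libraries alone gave 0.63 for Jak1 and 4.46 for Stat5a. Leaving out 1 library gave -1.39 to 1.14 for Jak1, -6.79 to 0.41 for Tyk2, -2.01 to 4.81 for Stat5a and -5.91 to 6.18 for Stat5b. In TetLowProg against TetHighProg, the covariate gave -5.27 for Stat5a and -3.41 for Stat5b, which was -0.10 with no filter and -0.91 in the richer libraries. Leaving out 1 library gave -0.86 to 2.49 for Jak1 and -1.11 to 8.78 for Stat5b. In TetLowProg against TetLowReg, the richer libraries gave -0.51 for Jak1, and leaving out 1 library gave -0.05 to 2.07 for Jak1 and -1.79 to 2.16 for Jak2. The difference in genes found per library between TetLowProg and TetLowReg was 2.0, and -0.17 to 4.17 with 1 library left out, the lowest without TetLowReg 6. That between TetLowReg and TetHighProg was 1.0 to 4.5, and that between TetLowProg and TetHighProg 3.0 to 6.5. For Stat3 the adjusted p ranged from 3.7e-14 (DESeq2, 3 groups) to 0.445 (edgeR, no filter) in TetLowProg and from 2.08e-12 to 0.477 in TetLowReg, each against TetHighProg. The cause of these changes was not tested. No paired analysis was possible because the groups share no replicate numbers. A count of 0 in a library with few genes found does not show that a gene was not expressed.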
